A study of Mus musculus with 6 samples.

Results

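The genes of cholesterol and fatty acid synthesis were followed in growth plate cartilage of mouse embryos at embryonic day 18.5 (E18.5). The members are 35 named genes, 18 enzymes that turn acetyl-CoA into cholesterol, 6 genes of sterol sensing and sterol transport, and 11 enzymes that make, desaturate or elongate fatty acids. They were matched by symbol in the table of 15803 genes, and all 35 were found. The question was how these genes differ when Hnrnpk, which encodes an RNA-binding protein, is deleted in chondrocytes. For the 3 libraries labelled CKO, the labels give the genotype Hnrnpk fl/fl with Col2a1-Cre, a transgene active in the cartilage lineage that removes the loxP-flanked part of Hnrnpk. For the 3 libraries labelled WT they give Hnrnpk fl/fl, the same floxed alleles with no transgene. Values of single libraries are listed in the order of replicates 1, 2 and 3, with the genotype in parentheses. The sources used here do not say whether each library came from a separate embryo, so that p-values measure the spread between these libraries only. Hnrnpk (ENSMUSG00000021546) measured 842, 955 and 944 CPM (WT) against 759, 949.9 and 780.0 CPM (CKO). These ranges overlapped (log2 fold change -0.14, SE (standard error) 0.15; limma's adjusted p = 0.622), the values cover the whole gene and not the floxed exons alone, and the libraries are therefore called by their labels.

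Cells build cholesterol from acetyl-CoA through mevalonate, isoprenoid diphosphates, squalene and lanosterol, and the same cytosolic acetyl-CoA feeds the synthesis of palmitate and of longer and desaturated fatty acids. Both branches are controlled by the sterol regulatory element-binding proteins (SREBP), membrane-bound transcription factors that Scap escorts to the Golgi for cleavage when sterols are low and that Insig proteins hold in the endoplasmic reticulum when sterols are high. Cartilage has no blood vessels, and its chondrocytes need cholesterol both for membranes and for the modification of hedgehog proteins, while inherited defects of several sterol enzymes are known for skeletal malformations.

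Values are in CPM, the reads on a gene scaled to a fixed total over all genes of a library. Each value was a whole multiple of the CPM of 1 read, so that the reads were recovered, 1379674, 1332542 and 1183743 in WT 1, 2 and 3 and 1454094, 1385468 and 1153871 in CKO 1, 2 and 3. The members together held 2208, 2215 and 3712 reads in WT 1, 2 and 3 and 2149, 1534 and 1688 reads in CKO 1, 2 and 3. In CPM their summed level was 1600, 1662 and 3136 in WT 1, 2 and 3, and 1478, 1107 and 1463 in CKO 1, 2 and 3. The sum of WT 3 was thus about that of WT 1 and WT 2 together, and CKO 2 held the fewest. Both libraries also stood apart from their own group over all genes. The chi-square per gene between recovered reads, which is near 1 when libraries differ by counting noise alone, was 1.89 between WT 1 and WT 2 but 7.92 and 7.27 between WT 3 and each of these. It was 1.27 between CKO 1 and CKO 3 but 11.8 and 10.9 between CKO 2 and each of these. CKO 1 and CKO 3 therefore differed by little more than counting noise. The counts of members called and past the 2-fold criterion are therefore given below with all 6 libraries and without WT 3, CKO 2 or both, and the choice to leave out both was made after the data were seen.

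**Figure D1:**
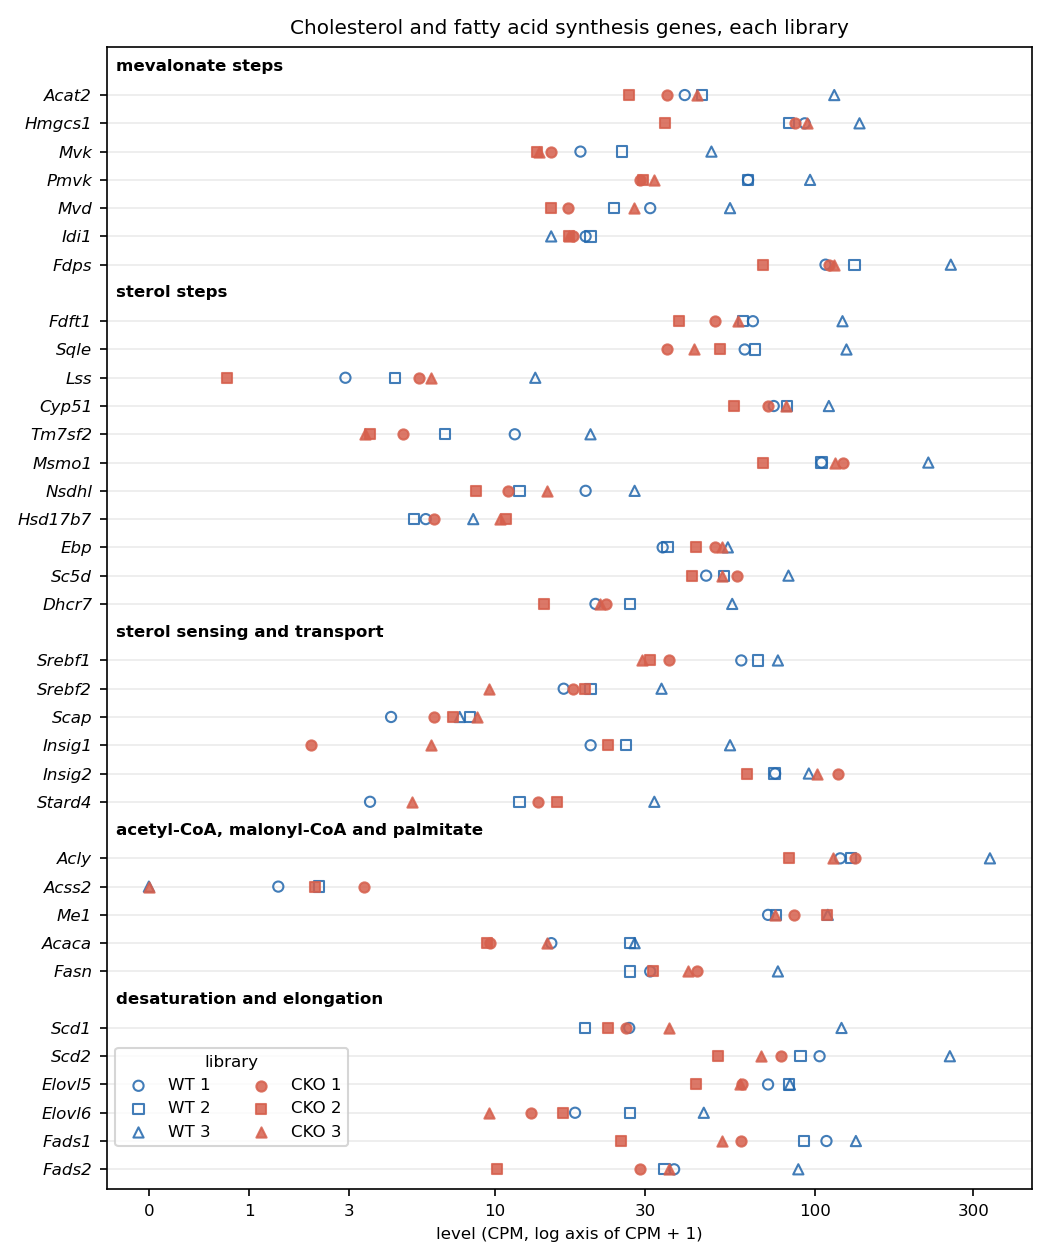
Level of each of the 35 genes in each library, on a log axis of CPM + 1, with open blue symbols for WT and filled red symbols for CKO (circle, square and triangle for replicates 1, 2 and 3). The open triangles of WT 3 lie to the right of the other 5 libraries in 30 genes, Pmvk, Srebf1 and Fads1 among them. In 11 genes, these 3 included, all 3 libraries labelled WT lie to the right of all 3 labelled CKO.

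Lower levels in the libraries labelled CKO prevailed among the members. Of the 35 genes, all of them tested, 29 had a negative log2 fold change (CKO minus WT, from log2(CPM + 1), a scale that understates changes of genes with few reads) and 6 a positive one. The median of the members was -0.68, against 0.013 over all 12155 genes tested. With limma's adjusted p under 0.05, 387 of all genes tested were called higher and 316 lower. Among the members 3 (8.57%) were lower, namely Pmvk, Srebf1 and Fads1, where 2.60% of all genes tested were lower. None of the 35 was called higher by limma with all 6 libraries, where limma called 3.18% of all genes higher. None was called higher by edgeR (32 tested) or by DESeq2, which gave no adjusted p for Lss and Acss2. At an unadjusted p under 0.05 limma gave 0 members higher and 14 lower, against 11.2% and 10.1% of all genes. By the criterion of a log2 fold change below -1 with an unadjusted p under 0.05, 8 members (22.9%) were lower against 5.10% of all genes, and 0 were higher against 5.30%. All WT values lay on the same side of all CKO values in 11 members (31.4%), all lower in CKO, where 13.2% of all genes were lower and 14.5% higher without overlap.

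These counts rested in part on WT 3 and CKO 2. Without WT 3 the median of the members was -0.30 with 26 of 35 negative, 3 members (8.57%) passed the 2-fold criterion as lower against 4.90% of all genes, and Pmvk and Srebf1 (5.71% of the members) were called lower against 1.82%. The 3 that kept the criterion were Pmvk, Tm7sf2 and Fads1. Without CKO 2 the median was -0.50, and 5 members (14.3%) were called lower against 5.03% of all genes, with Sqle and Insig1 beside the former 3, while 6 (17.1%) passed the 2-fold criterion as lower against 6.70%. Without both libraries the median was -0.15 with 23 of 35 negative. In that fit of 2 libraries against 2, in which the libraries of a genotype lay closer together, 6 members (17.1%) were called lower against 9.22% of all genes, and Insig2 (2.86%) was called higher against 11.0%. The 6 were Pmvk, Srebf1, Fads1, Sqle, Insig1 and Elovl6. The share past the 2-fold criterion as lower, 2 members (5.71%), was then no higher than that of all genes (6.63%).

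The calls also depended on the other libraries. Without CKO 1 the members called lower were Srebf1 and Fads1 (5.71%, against 1.03% of all genes). Pmvk alone (2.86%) was called lower without WT 1, against 0.666% of all genes, and without WT 2, against 0.650%. Without CKO 3 none was called, against 0.886% of all genes. The 2-fold criterion was passed as lower by 12 members (34.3%) without WT 1, against 4.84% of all genes, and by 11 (31.4%) without WT 2, against 4.75%. It was passed by 8 (22.9%) without CKO 1, against 4.997%, and by 8 without CKO 3, against 5.19%.

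**Figure D2:**
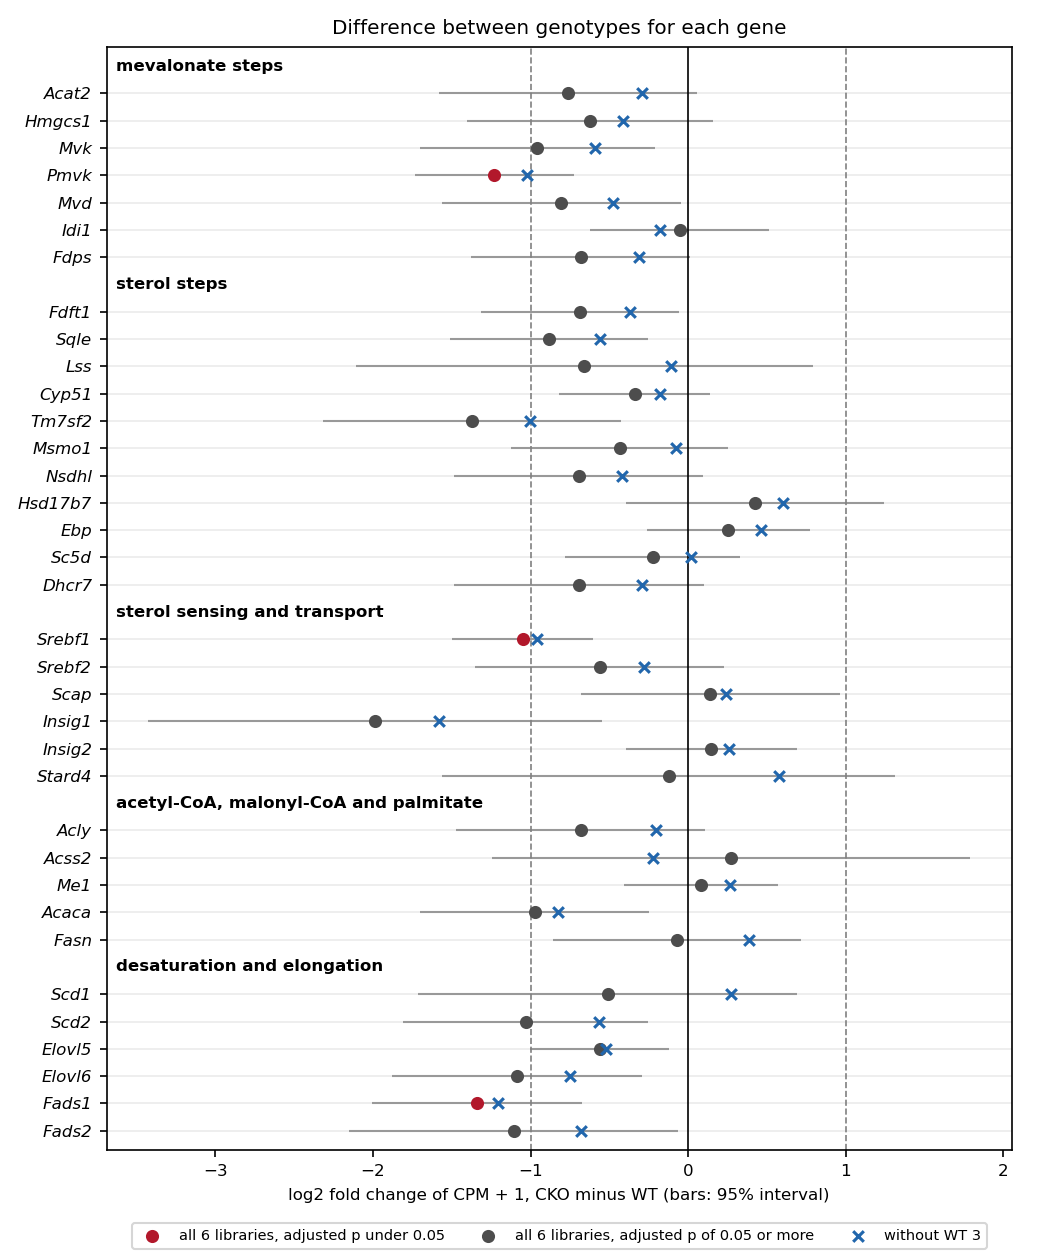
Log2 fold change of each gene (CKO minus WT, CPM + 1) with all 6 libraries as dots with 95% intervals, red for genes with limma's adjusted p under 0.05, and without WT 3 as blue crosses; dashed lines mark -1 and 1. Most crosses lie closer to 0 than the dots, while those of Pmvk (-1.02), Srebf1 (-0.96) and Fads1 (-1.20) stay near -1.

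In the mevalonate steps, from acetyl-CoA to farnesyl diphosphate, all 7 genes had negative log2 fold changes, with a median of -0.76 that was -0.41 without WT 3 and -0.17 without WT 3 and CKO 2. Pmvk (ENSMUSG00000027952; GRCm38 chromosome 3, 89454541 to 89469013), which encodes the kinase that phosphorylates phosphomevalonate, measured 62.3, 62.3 and 96.3 CPM (WT) against 28.9, 29.6 and 32.1 CPM (CKO). All libraries labelled CKO lay close together and below all those labelled WT. The level fell from 73.6 ± 19.6 CPM (SD, n = 3) to 30.2 ± 1.67 CPM (SD, n = 3), a log2 fold change of -1.23 (SE 0.23; limma's adjusted p = 0.0130). Leaving out single libraries kept it between -1.33 and -1.02, with limma's adjusted p = 0.0567 without CKO 1 and 0.0518 without CKO 3 (range over 13 alternatives 8.04e-04 to 0.0567). Per kb of annotated exon, Pmvk was the most abundant member in WT, at a mean of 43.0 CPM per kb. The upstream kinase gene Mvk measured 18.8, 25.5 and 48.2 CPM (WT) against 15.1, 13.7 and 13.9 CPM (CKO), again without overlap. Mvk was not called (log2 fold change -0.96, limma's adjusted p = 0.131), and WT 3 was 2.17 times the mean of WT 1 and WT 2. Fdps, the farnesyl diphosphate synthase gene and the most abundant of these genes in CPM, measured 107, 131 and 257 CPM (WT) against 110.0, 69.3 and 114 CPM (CKO). The genotypes overlapped, WT 3 stood high and CKO 2 low, and the log2 fold change moved from -0.68 (limma's adjusted p = 0.243) to -0.086 without both libraries. Of the other 4 genes, Acat2, Hmgcs1 and Mvd, which encode the thiolase, the synthase and the decarboxylase of the pathway, had log2 fold changes between -0.80 and -0.62 with overlapping genotypes. Idi1, the isomerase gene, was near its WT level at -0.053 (95% interval -0.62 to 0.51) and was the lowest in WT 3. Stretches of 300 bp or longer that are alike at 90% or more were found between Acat2 and 2 other annotated genes, Idi1 and 4, and Fdps and 6, and reads on them could be shared. Fdps also shares 1124 bp on the same strand with Gm43738.

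The 250 bases before the start sites of the members were searched on both strands for CCAAT, for TCACNCCAC, a form of the sterol regulatory element, and for the E-box CACGTG. The RefSeq promoter table (GRCm38.p6) held 37 windows for 28 of the 35 members. CCAAT was present in 23 of the 37 windows (62.2%), against 33.8% of all 32851 windows and 35.5% of the 11783 windows of genes tested here. Of the 28 members, 22 (78.6%) had it in at least 1 window, against 41.1% of the genes tested. CACGTG was in 16.2% of the members' windows and in 8.31% of those of genes tested. TCACNCCAC was in 1 window, that of Hmgcs1 (2.70% of the members' windows, against 1.05% of all windows and 0.951% of those of genes tested). Such matches are a description of letters and not of bound sites. The table held 2 windows for Pmvk and 3 for Srebf1, of which 1 of each gene had no CCAAT and the other Srebf1 window, not shown, had it 166 bases before its start. The windows below, chosen after the matches were seen, are shown because Pmvk and Srebf1 were called lower, Hmgcs1 held the sterol element and Mvd held a pair of CCAAT matches close to the start. Each is given 5′ to 3′ on the strand of its gene, with CCAAT, read on either strand, and the sterol element in capitals, and none holds an annotated exon of a protein-coding gene.
Hmgcs1, chr13:119690101-119690350, plus strand: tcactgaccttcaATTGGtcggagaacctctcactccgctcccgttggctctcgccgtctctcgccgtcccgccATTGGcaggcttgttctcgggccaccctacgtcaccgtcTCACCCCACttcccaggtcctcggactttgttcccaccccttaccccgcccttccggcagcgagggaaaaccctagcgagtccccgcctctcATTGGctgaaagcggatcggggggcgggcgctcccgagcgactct
Mvd, chr8:122443423-122443672, minus strand: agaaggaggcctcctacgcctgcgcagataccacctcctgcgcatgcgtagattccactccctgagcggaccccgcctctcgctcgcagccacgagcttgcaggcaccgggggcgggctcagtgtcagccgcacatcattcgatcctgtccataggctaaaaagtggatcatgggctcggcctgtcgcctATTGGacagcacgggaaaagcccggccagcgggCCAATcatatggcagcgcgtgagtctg
Pmvk, chr3:89454291-89454540, plus strand: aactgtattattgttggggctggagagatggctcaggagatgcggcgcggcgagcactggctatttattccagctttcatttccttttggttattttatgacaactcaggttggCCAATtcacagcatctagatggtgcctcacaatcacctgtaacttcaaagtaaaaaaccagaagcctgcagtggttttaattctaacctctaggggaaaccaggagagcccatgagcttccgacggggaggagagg
Srebf1, chr11:60210472-60210721, minus strand, inside the gene: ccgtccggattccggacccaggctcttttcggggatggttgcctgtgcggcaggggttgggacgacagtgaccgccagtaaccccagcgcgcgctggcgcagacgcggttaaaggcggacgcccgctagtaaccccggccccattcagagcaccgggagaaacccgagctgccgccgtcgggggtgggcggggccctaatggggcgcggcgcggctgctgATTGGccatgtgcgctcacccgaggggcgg
In the Hmgcs1 window the sterol element TCACCCCAC began 137 bases before the start, between CCAAT matches at 237 and 176 bases and another at 45 bases. Those of Mvd began 60 and 27 bases before the start, that of Pmvk 136 bases and that of Srebf1 30 bases before it.

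The 11 sterol steps, from squalene to cholesterol, held no gene past limma's adjusted threshold in either direction with all 6 libraries, nor with edgeR (9 tested) or DESeq2, and 3 had an unadjusted p under 0.05 in limma, all lower. Their median was -0.66, and -0.18 without WT 3 and -0.033 without both WT 3 and CKO 2. Sqle, the squalene epoxidase gene, measured 60.9, 65.3 and 124 CPM (WT) against 35.1, 51.2 and 42.5 CPM (CKO). The genotypes did not overlap. Its log2 fold change of -0.88 (SE 0.28; limma's adjusted p = 0.101) was -1.02 without CKO 2, with an adjusted p = 0.0485, in a range over 13 alternatives from 0.0127 to 0.277. Tm7sf2, which encodes a sterol reductase, measured 11.6, 6.75 and 20.3 CPM (WT) against 4.81, 3.61 and 3.47 CPM (CKO). It had the lowest log2 fold change of these genes, -1.37 (limma's adjusted p = 0.0902), from few reads, and it shares 532 bp on the same strand with Vps51. Fdft1, the squalene synthase gene, measured 64.5, 60.04 and 121 CPM (WT) against 49.5, 38.3 and 58.1 CPM (CKO). These values did not overlap either, but CKO 3 and WT 2 lay close together, and the log2 fold change of -0.69 was not called (limma's adjusted p = 0.196). Fdft1 shares 774 bp with Ctsb on the opposite strand. Msmo1, the methylsterol oxidase gene and the most abundant of the group, measured 104, 104 and 220 CPM (WT) against 121, 69.3 and 114 CPM (CKO). CKO 1 and CKO 3 lay above WT 1 and WT 2, so that the log2 fold change of -0.44 turned to 0.17 without WT 3 and CKO 2.

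The other 7 sterol genes overlapped between genotypes. Lss, Cyp51, Nsdhl, Sc5d and Dhcr7, which encode the cyclase, the lanosterol demethylase, a sterol dehydrogenase, a sterol desaturase and the reductase of the last step, had log2 fold changes from -0.69 to -0.22. Lss rested on 1 read in CKO 2. Ebp, the sterol isomerase gene, and Hsd17b7, the sterol keto reductase gene, pointed the other way with log2 fold changes of 0.25 and 0.42, neither of which was called. Within these steps the differences thus ranged from -1.37 for Tm7sf2 to 0.42 for Hsd17b7, whose 95% intervals, -2.32 to -0.43 and -0.39 to 1.24, lay next to each other without overlap. A difference between genes was not tested.

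Among the 6 genes of sterol sensing and transport, Srebf1 was called and Insig1 varied most. Their median of -0.34 was -0.021 without WT 3, -0.57 without CKO 2 and -0.11 without WT 3 and CKO 2. Srebf1 (ENSMUSG00000020538; GRCm38 chromosome 11, 60199089 to 60222581) encodes SREBP1, the form best known for driving fatty acid synthesis. It measured 59.4, 66.8 and 76.9 CPM (WT) against 35.8, 31.0 and 29.5 CPM (CKO). Here WT 3 was only 1.22 times the mean of WT 1 and WT 2, and every library labelled CKO lay well below every library labelled WT. Its level fell from 67.7 ± 8.76 CPM (SD, n = 3) to 32.1 ± 3.28 CPM (SD, n = 3), a log2 fold change of -1.05 (SE 0.20; limma's adjusted p = 0.0159). Leaving out single libraries gave values between -1.14 and -0.96, with an adjusted p = 0.0527 without WT 1, 0.0793 without WT 2 and 0.0800 without CKO 3 (range over 13 alternatives 0.00180 to 0.0800). Srebf1 shares 109 bp with Rai1 on the opposite strand, and the strand setting of the counting was not given in the sources used here. Srebf2, which encodes SREBP2, the form best known for driving sterol synthesis, had a log2 fold change of -0.56 with overlapping genotypes (SE 0.36; limma's adjusted p = 0.399). A difference between Srebf1 and Srebf2 was not tested.

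Insig1, an SREBP target that retains Scap in the endoplasmic reticulum, measured 20.3, 26.3 and 54.9 CPM (WT) against 2.06, 23.1 and 6.07 CPM (CKO). CKO 2 lay within the WT range and CKO 1 rested on 3 reads. The log2 fold change of -1.99 (SE 0.65; limma's adjusted p = 0.107) passed the 2-fold criterion, and without CKO 2 it was -2.78 with an adjusted p = 0.00496 (range over 13 alternatives 3.93e-04 to 0.274). Its paralog Insig2, the most abundant gene of the group, measured 75.4, 75.0 and 95.5 CPM (WT) against 117, 62.1 and 101 CPM (CKO). CKO 1 and CKO 3 lay above all libraries labelled WT and CKO 2 below them, so that the log2 fold change of 0.15 (adjusted p = 0.775 in limma) was 0.53 without WT 3 and CKO 2 (adjusted p = 0.0156, range over 13 alternatives 0.0156 to 0.965). Scap had a log2 fold change of 0.14 whereas that of Stard4, a carrier of cholesterol between membranes, was -0.12. Stard4 spanned 3.62 to 32.1 CPM within WT alone, and its sign turned without WT 3 (0.58).

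In the synthesis of acetyl-CoA, malonyl-CoA and palmitate, none of the 5 genes was called by limma, edgeR (4 tested) or DESeq2, and Acaca alone had an unadjusted p under 0.05 in limma. The median of -0.071 was -0.20 without WT 3 and -0.018 without WT 3 and CKO 2. Acaca, the acetyl-CoA carboxylase gene, measured 15.2, 27.0 and 27.9 CPM (WT) against 9.63, 9.38 and 14.7 CPM (CKO). CKO 3 lay just below WT 1, and the log2 fold change was -0.97 (SE 0.33; limma's adjusted p = 0.117). Acly, which encodes ATP citrate lyase and is the most abundant member of this group, measured 119, 128 and 337 CPM (WT) against 132, 83.0 and 113 CPM (CKO). WT 3 was 2.73 times the mean of WT 1 and WT 2, whereas CKO 1 lay within the range of WT. The log2 fold change of Acly was -0.68 with all libraries and -0.018 without WT 3 and CKO 2. Fasn, the fatty acid synthase gene, and Me1, the malic enzyme gene that supplies NADPH, had log2 fold changes of -0.071 (95% interval -0.86 to 0.72) and 0.080 (95% interval -0.41 to 0.57). Acss2 had a mean of 1.23 CPM in WT and 1.87 CPM in CKO, from 0 to 5 reads per library, and no difference was detectable at this depth.

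All 6 genes of desaturation and elongation had negative log2 fold changes, with a median of -1.06 that was -0.62 without WT 3 and -0.38 without both WT 3 and CKO 2. Fads1 (ENSMUSG00000010663; GRCm38 chromosome 19, 10182888 to 10196877) encodes a front-end desaturase of polyunsaturated fatty acids. Its level was 108, 92.3 and 133 CPM (WT) against 59.1, 25.3 and 52.0 CPM (CKO). All libraries labelled CKO were lower than all those labelled WT, and CKO 2 was the lowest. The mean fell from 111 ± 20.3 CPM (SD, n = 3) to 45.5 ± 17.9 CPM (SD, n = 3), a log2 fold change of -1.34 (SE 0.30; limma's adjusted p = 0.0298). Without single libraries it lay between -1.57 and -0.97, with an adjusted p = 0.117 without WT 1, 0.0853 without WT 2, 0.0828 without WT 3 and 0.0704 without CKO 3 (range over 13 alternatives 8.98e-04 to 0.117). Its neighbour Fads2, which encodes the other front-end desaturase, measured 37.0, 34.5 and 88.7 CPM (WT) against 28.9, 10.1 and 35.5 CPM (CKO). CKO 3 lay within the WT range, and the log2 fold change of -1.11 (adjusted p = 0.208 in limma) was -0.15 without WT 3 and CKO 2.

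Scd2, the stearoyl-CoA desaturase gene with the highest level in this group, measured 103, 90.1 and 255 CPM (WT) against 78.4, 50.5 and 68.5 CPM (CKO). The genotypes did not overlap, and WT 3 again stood high. The log2 fold change was -1.03 (SE 0.35; limma's adjusted p = 0.120), while DESeq2 called it on the recovered reads (adjusted p = 0.0209, the lowest of 13 alternatives, which ranged up to 0.235). Without WT 3 it was -0.57, no longer past the 2-fold criterion, and without WT 3 and CKO 2 it was -0.39. Elovl6, which encodes the elongase that acts on palmitate, measured 18.1, 27.0 and 45.6 CPM (WT) against 13.1, 16.6 and 9.53 CPM (CKO). These values did not overlap, although CKO 2 and WT 1 lay close together, and the log2 fold change of -1.09 was not called (limma's adjusted p = 0.110). Without WT 3 and CKO 2 it was -0.93 and called (adjusted p = 0.0477, range over 13 alternatives 0.0477 to 0.296). Elovl5, an elongase of polyunsaturated fatty acids, measured 71.8, 83.3 and 83.6 CPM (WT) against 59.8, 43.3 and 58.9 CPM (CKO). Its libraries labelled WT lay close together, WT 3 being 1.08 times the mean of the other 2, and its log2 fold change of -0.56 (SE 0.20; limma's adjusted p = 0.135) was -0.52 without WT 3. Scd1, the paralog of Scd2, had the largest excess of WT 3 among the members, at 120.0 CPM against 26.8 and 19.5 CPM in WT 1 and WT 2, and its log2 fold change of -0.51 turned to 0.27 without WT 3. Scd1 and Scd2 have such near-identical stretches in common and could share reads.

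**Figure D3:**
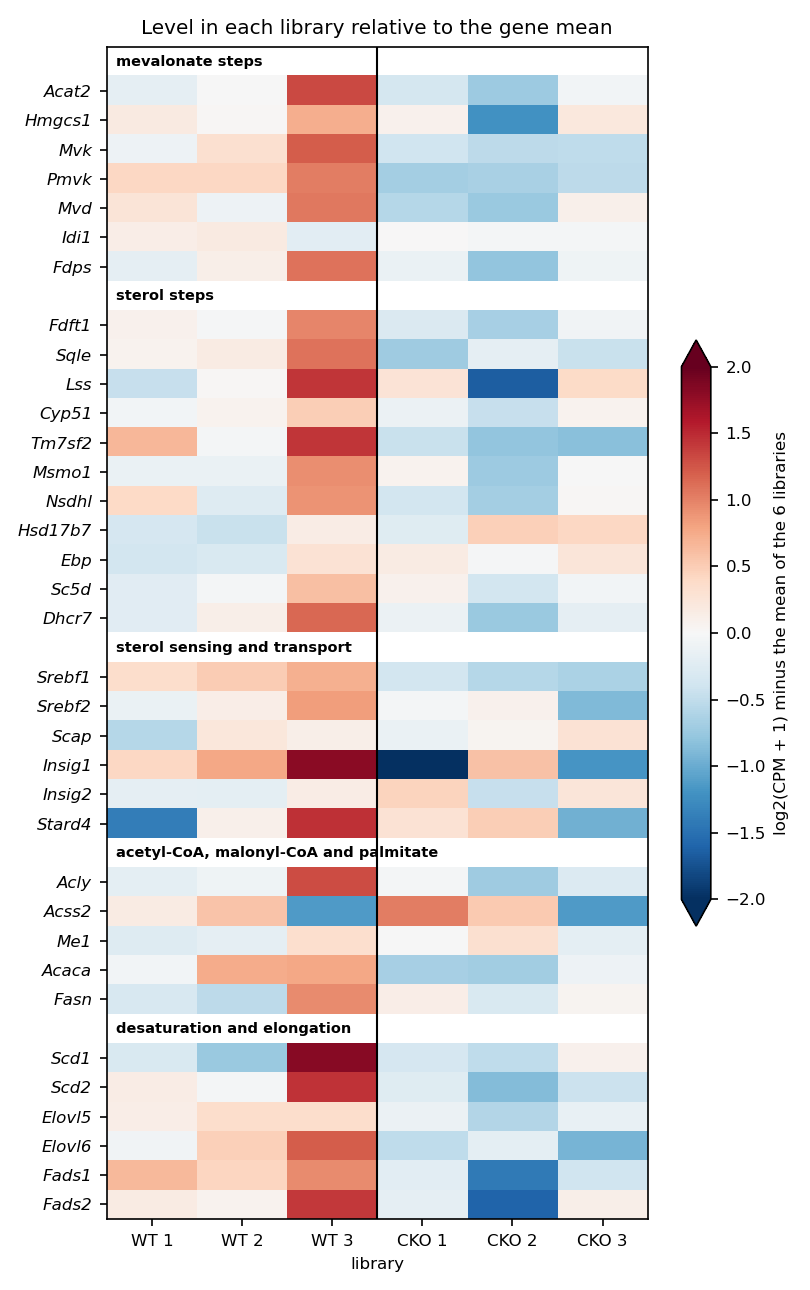
Level of each gene in each library as log2(CPM + 1) minus the mean of the 6 libraries, red above and blue below the mean, with genes in the order of the pathway. The column of WT 3 is red in most genes and that of CKO 2 is blue in many. Pmvk, Srebf1 and Fads1 are red in all 3 columns of WT and blue in all 3 of CKO, and so are Sqle and Elovl5, which were not called with all 6 libraries.

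The pattern shared by most members was the high level in WT 3. Of the 35 members, 32 (91.4%) were highest in WT 3 among the libraries labelled WT, against 41.2% of all genes tested, and 30 (85.7%) were highest in WT 3 among all 6 libraries, against 20.9%. WT 3 exceeded 1.5 times the mean of WT 1 and WT 2 in 25 members (71.4%), against 22.5% of all genes, and the median ratio was 1.94 in the members and 1.02 in all genes. The excess ran through every role, at 1.89 times for the summed CPM of the mevalonate steps, 1.86 for the sterol steps, 1.55 for sensing and transport, 2.21 for acetyl-CoA to palmitate and 2.04 for desaturation and elongation. In summed CPM this order was not limited to the members. The summed CPM of the list for sterol uptake, efflux and storage (1574 CPM in WT 3 and 847 CPM in CKO 2) and of that for other steps of fatty acid synthesis (1494 and 903 CPM) were also highest of WT in WT 3 and lowest of CKO in CKO 2. The low sums of CKO 2 came mostly from few abundant genes. These were Npc2 (620, 468 and 638 CPM in CKO) and Apoe (270, 49.1 and 276 CPM) in the former list and Tecr (435, 232 and 426 CPM) in the latter. The sum of the list for other sterol synthesis and SREBP processing was highest of all in CKO 2 (808.4 CPM, against 807.6 CPM in WT 3). The 3 members that were not highest in WT 3 among the WT libraries were Idi1, Scap and Acss2. CKO 2 was the lowest of the libraries labelled CKO in 23 members (65.7%), against 37.9% of all genes. With WT 1 and WT 2 alone as the reference, the mean of CKO was lower in 24 of the 35 members, at a median ratio of 0.818. The lowest of these ratios were 0.432 for Tm7sf2, 0.447 for Insig1, 0.454 for Fads1, 0.484 for Pmvk and 0.508 for Srebf1. The called genes Srebf1 and Fads1 were among the members least raised in WT 3, at 1.22 and 1.32 times the mean of WT 1 and WT 2, and Pmvk was raised there 1.55 times. A small excess in WT 3 narrows the spread within WT and so favours a call by construction. Elovl5 (1.08 times) and Insig2 (1.27 times) were raised less than Fads1 and were not called with all 6 libraries.

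**Figure D4:**
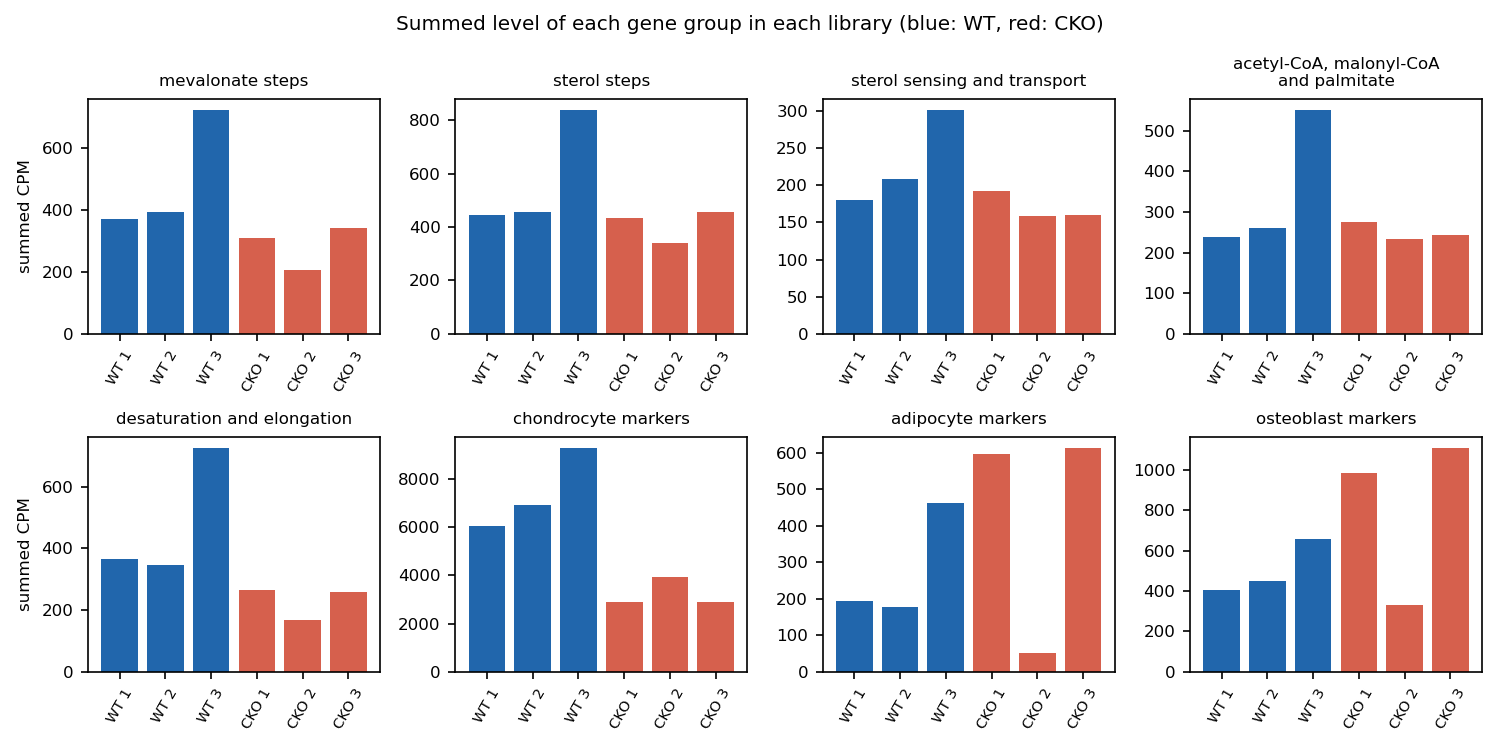
Summed CPM of each role group and of the chondrocyte, adipocyte and osteoblast markers in each library (blue for WT, red for CKO), each panel from 0 on its own scale. Each role group is highest in WT 3, while the adipocyte and osteoblast markers are highest in CKO 1 and CKO 3 and lowest in CKO 2.

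Marker lists of other cell types were read in the same libraries, since in bulk tissue fewer cells of a type and less RNA per cell cannot be told apart. The 6 chondrocyte markers summed to 6046, 6907 and 9283 CPM (WT) against 2899, 3921 and 2905 CPM (CKO), with Col2a1 the most abundant. Of these, 4 were called lower with limma (Col2a1, Acan, Col9a1 and Matn3), the median log2 fold change being -1.26. Acan and Col9a1 stayed called whichever library was left out. Col2a1 was not called without WT 2 (-1.05, adjusted p = 0.0624), CKO 1 (-0.95, 0.0641) or CKO 3 (-0.96, 0.0694). Matn3 was called without CKO 2 and not without WT 1 (-1.85, 0.0777), WT 2 (-1.80, 0.0879), WT 3 (-1.06, 0.0560), CKO 1 (-1.42, 0.142) or CKO 3 (-1.42, 0.156). Both this sum and the members were thus highest in WT 3, but CKO 2 was the highest of CKO in the chondrocyte sum and the lowest of CKO in the members. The 6 adipocyte markers, a cell type rich in these enzymes, summed to 194, 176 and 462 CPM (WT) against 596, 52.7 and 614 CPM (CKO), with Fabp4 the most abundant. Adipoq measured 34.1, 25.5 and 58.3 CPM (WT) against 57.8, 0 and 58.1 CPM (CKO), and Cfd was likewise at 0 in CKO 2 alone. WT 3 and CKO 2, which stood apart in the members, thus also held the most and the fewest adipocyte reads within their genotype, but CKO 1 and CKO 3 held more than WT 3 and had summed levels of the members below that of WT 1. With all 6 libraries no adipocyte marker was called by limma, edgeR (3 tested) or DESeq2 in either direction. In limma 0 of 4 tested had an unadjusted p under 0.05, and Lep and Cidec were at 3 reads or fewer in every library. Without CKO 2 limma called Cfd higher (1.19, adjusted p = 0.00395), and the median of the adipocyte markers turned from -0.87 to 0.63. The 4 sebocyte markers summed to between 127 CPM (CKO 2) and 213 CPM (CKO 1), nearly all from Mgst1 and Soat1, while Scd3 and Mc5r had at most 1 read in any library. The part of these cell types in the members' levels was not tested.

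The remaining marker lists differed in size and in their order of libraries. The osteoblast, skeletal muscle, hypertrophic, and macrophage and osteoclast sums were, like the members, highest of WT in WT 3 and lowest of CKO in CKO 2. The macrophage and osteoclast markers summed to 99.3, 105 and 112 CPM (WT) against 179, 178 and 193 CPM (CKO), with Ctsk the most abundant and Cd68 called higher (log2 fold change 2.74, limma's adjusted p = 0.00114). The hypertrophic markers were dominated by Spp1, which was called higher (2.84, limma's adjusted p = 0.00403), and their sum was the largest of all marker lists in CKO, up to 14362 CPM in CKO 3. Within that sum it was Mmp13 that was low in CKO 2, at 2155, 377 and 2301 CPM (CKO). Col10a1 was not called (0.33, limma's adjusted p = 0.738) and was highest of CKO in CKO 2, at 24.8, 45.5 and 16.5 CPM (CKO). Ihh had 2 reads in WT and 1 in CKO. The osteoblast markers ranged from 331 CPM in CKO 2 to 1109 CPM in CKO 3. Most of that range came from Ibsp, at 708, 83.0 and 808 CPM (CKO), while Col1a1, the most abundant in WT, had a log2 fold change of -0.57 and was nearly level over CKO, at 245, 240 and 269 CPM. In limma Ibsp (2.84, adjusted p = 1.68e-05), Bglap (2.01, 0.00323) and the hypertrophic marker Mmp13 (2.66, 9.29e-04) were called higher without CKO 2, and the chondrocyte marker Sox9 lower (-1.15, 0.00888). These calls rest on the small spread between CKO 1 and CKO 3. In CKO 2 itself Ibsp (83.0 CPM), Mmp13 (377 CPM) and Sox9 (73.6 CPM) lay within the range of WT and Bglap (2.89 CPM) below it. Acp5 of the osteoclast markers (2.20, 0.0308) and Tnnt3 of the muscle markers (1.61, 0.0167) were called higher without WT 3. The skeletal muscle markers ranged from 29.3 CPM in WT 2 to 127 CPM in WT 3, with Mylpf the most abundant. The keratinocyte markers ranged from 21.1 to 118 CPM, with Krt10 the most abundant in WT and Sbsn in CKO, Krt1 near 0 and Sbsn called higher (3.78, limma's adjusted p = 0.00466). Brown adipocyte markers ranged from 2.90 to 21.7 CPM, nearly all from Cidea, while Ucp1 had 0 reads in WT and 2 in CKO. Erythroid markers summed to at most 3.75 CPM and endothelial markers, Pecam1, Cdh5 and Emcn, to at most 3.38 CPM in any library.

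Lists of genes that act next to the members had medians nearer to 0 than the members with all 6 libraries but not without WT 3 and CKO 2, and a difference between lists was not tested. In a list of 12 other genes of sterol synthesis and SREBP processing, 10 were tested, of which 6 had positive and 4 negative log2 fold changes with a median of 0.055 (0.17 without WT 3 and CKO 2). None of them was called by limma or DESeq2, 5 had an unadjusted p under 0.05 (3 higher and 2 lower), and edgeR called 1 lower. That gene was Mbtps1, which encodes the first protease to cleave SREBP (log2 fold change -0.70, adjusted p = 0.0375 in edgeR, 0.0581 in limma and 0.0741 in DESeq2). In the list for sterol uptake, efflux and storage 13 of 14 genes were tested, with 7 positive and 6 negative log2 fold changes and a median of 0.0067 (0.23 without WT 3 and CKO 2). None of these was called by limma, edgeR (10 tested) or DESeq2 with all 6 libraries, and 3 had an unadjusted p under 0.05 (2 higher and 1 lower). In limma the cholesterol acyltransferase gene Soat1 was called lower without WT 3 (-0.84, adjusted p = 0.0313, against -0.52 and 0.282 with all), and the sterol receptor gene Nr1h3 was called higher without CKO 2 (1.91, 0.0181, against 1.40 and 0.133). In the list for other steps of fatty acid synthesis and activation 20 of 25 genes were tested, with 9 positive and 11 negative log2 fold changes and a median of -0.21. Without WT 3 and CKO 2 its median was -0.18, about that of the members (-0.15). In limma 0 genes of this list were called higher and 1 lower, with 3 higher and 2 lower at an unadjusted p under 0.05, whereas edgeR called 1 higher and 0 lower, and DESeq2 0 higher and 1 lower. The gene called higher by edgeR was Acsl4, which encodes an acyl-CoA synthetase (log2 fold change 1.85, adjusted p = 0.0498 in edgeR, 0.0554 in limma and 0.1004 in DESeq2). Without WT 3 limma called Acsl4 (2.32, adjusted p = 0.0250) and the elongase gene Elovl1 (0.85, 0.0302) higher. The gene called lower by limma was Thrsp, which encodes a nuclear protein linked to lipogenesis. It measured 6.52, 3.002 and 27.0 CPM (WT) against 1.38, 0 and 0 CPM (CKO), or 45 against 2 reads, a ratio of WT to CKO of 23.1 (exact 95% interval 6.02 to 196, counting error only). Of the 45 reads, 32 were in WT 3, so that the ratio rests largely on that library. Like most members Thrsp was highest in WT 3, and its call (log2 fold change -2.82, limma's adjusted p = 0.0438) was lost whichever library was left out. The adjusted p was then 0.130 (WT 1 out, -2.99), 0.0544 (WT 2 out, -3.44), 0.109 (WT 3 out, -2.04), 0.0645 (CKO 1 out, -3.24), 0.0552 (CKO 2 out, -2.62) and 0.143 (CKO 3 out, -2.62).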

How the data were processed

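RNA of E18.5 growth plate cartilage, labelled growth plate chondrocytes, was sequenced from 3 WT and 3 CKO libraries, made with a stranded mRNA kit. The authors deposited CPM per gene and library. The submitters' processing notes name cutadapt (2.5), HISAT2 and featureCounts (1.6.3), while genome build, annotation and strand setting were not given in the sources used here. All values (100%) were whole multiples of 1 read within 0.01 reads, and 1 read was worth between 0.688 and 0.867 CPM, so that a floor of 3 reads stood at 2.06 to 2.60 CPM.

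With limma (3.58.1, R 4.3.3) log2(CPM + 1) was fitted on genotype for the 12155 genes whose mean CPM was 1 or more, with empirical Bayes moderation, a trend and Benjamini-Hochberg adjustment over all of them. The code was tried on simulated data. With 3 libraries against 3 an exact permutation test cannot give p below 0.1. On the recovered reads edgeR (4.0.16, 7704 genes, 374 higher and 363 lower) and DESeq2 (1.42.0, 344 higher and 305 lower) were alternatives, beside a pseudocount of 0.1 CPM, no filter, TMM scaling, the replicate number as a term, an adjusted p under 0.01 and each library left out. Leaving out WT 3 and CKO 2 together was added after the data were seen. Coordinates, exon lengths and overlaps came from GENCODE release M21 (GRCm38), near-identical stretches from BLAST (2.17.0) and promoter sequences from RefSeq.

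The members and lists were chosen with earlier results of these data known. Values in every library were given for members that were called, past the 2-fold criterion or without overlap, and for the most abundant of each role, and other genes were named only if called by any tool or in limma without 1 library, or as defining markers. Some markers of the erythroid, endothelial and keratinocyte lists were not analysed here.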

Additional observations from a re-analysis of the deposited data

How the results depend on the processing

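The median log2 fold change of the members stayed negative in all 13 alternatives, from -0.84 to -0.15, and the number of members past the 2-fold criterion in the higher direction stayed 0. Without single libraries, the genes called over the whole table ranged from 123 to 692 higher and from 79 to 606 lower, the members called lower from 0 (without CKO 3) to 5 (without CKO 2), the members past the 2-fold criterion as lower from 3 (without WT 3) to 12 (without WT 1, 34.3% against 4.84% of all genes), and the median of the members from -0.84 to -0.30. Without WT 3 and CKO 2 together, 1312 genes were called higher and 1098 lower, 1 member higher and 6 lower, 2 members passed the 2-fold criterion, and the median was -0.15. The smaller spread within the remaining pairs enters these calls by construction, and that between CKO 1 and CKO 3 also enters every call without CKO 2. With an adjusted p under 0.01, 114 genes were called higher and 71 lower, and 0 members. The fit with the replicate block called 225 genes higher and 160 lower and 2 members, Srebf1 no longer being called (adjusted p = 0.0550). Libraries that share a number did not deviate together (correlations of deviations from the group means 0.038, -0.13 and -0.10), and no library of WT correlated best with its own number. A pairing by number was thus not seen. With 3 libraries per genotype, and WT 3 and CKO 2 apart from their groups, such correlations cannot exclude it.

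No member called with all 6 libraries changed sign in any alternative. Among members that were not called, the sign turned in fits without 1 library or without WT 3 and CKO 2 for Hmgcs1 (-0.88 to 0.041), Idi1 (-0.18 to 0.020), Lss (-1.06 to 0.55), Msmo1 (-0.61 to 0.17), Sc5d (-0.39 to 0.15), Scap (-0.10 to 0.29), Insig2 (-0.037 to 0.53), Stard4 (-0.84 to 0.58), Acss2 (-0.42 to 0.91), Me1 (-0.061 to 0.27), Fasn (-0.35 to 0.52) and Scd1 (-1.01 to 0.40). Over all members and alternatives the sign turned in 21 values, a call was gained in 7 and lost in 10, and sign and call were kept in 414. Values among these 414 could still move far, as for Acly (-0.68 to -0.018) and Fads2 (-1.11 to -0.15) without WT 3 and CKO 2. The cause was not tested. Genes with few reads, such as Acss2, Lss and Scap, are limited by depth.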

Other observations

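Genes that store and burn fatty acids were read beside those that make them. Values of single libraries are listed in the order of replicates 1, 2 and 3, and SE is the standard error. The summed CPM of both lists below was, like that of most synthesis genes, highest of WT in WT 3 (618 and 1975 CPM) and lowest of CKO in CKO 2 (460 and 1630.5 CPM). In a list of 16 genes of glycerolipid synthesis and lipid droplets, 7 had positive and 9 negative log2 fold changes, and 2 were called higher and 0 lower with limma's adjusted threshold (2 higher and 2 lower at an unadjusted p under 0.05, 2 higher and 0 lower with edgeR, 1 higher and 1 lower with DESeq2, in which Lpin3 was not called at an adjusted p = 0.0922). The median of this list was -0.20, and it turned to 0.028 without WT 3 and to 0.13 without WT 3 and CKO 2. The gene called lower by DESeq2 was Pcyt2, which encodes an enzyme of phosphatidylethanolamine synthesis, with 94.2, 88.6 and 217 CPM (WT) against 74.3, 44.0 and 70.2 CPM (CKO). It was highest in WT 3 and lowest in CKO 2 (log2 fold change -0.98, adjusted p = 0.0338 in DESeq2, 0.123 in limma and 0.0862 in edgeR), and without WT 3 it was at -0.57. Without CKO 2 limma also called Lpin1 higher (0.99, adjusted p = 0.0427). Plin2, which encodes a coat protein of lipid droplets, measured 74.7, 52.5 and 83.6 CPM (WT) against 212, 199 and 195.0 CPM (CKO). All libraries labelled CKO lay at about the same high level, CKO 2 included. Its level rose from 70.3 ± 16.0 CPM (SD, n = 3) to 202 ± 8.75 CPM (SD, n = 3), a log2 fold change of 1.54 (SE 0.20; limma's adjusted p = 0.00279) that stayed called, between 1.34 and 1.67, whichever library was left out. Lpin3, which encodes a phosphatidate phosphatase, measured 5.07, 6.004 and 3.38 CPM (WT) against 12.4, 17.3 and 15.6 CPM (CKO) (log2 fold change 1.48, limma's adjusted p = 0.0336). Its call was kept without CKO 2 and lost without WT 1 (1.53, adjusted p = 0.102), WT 2 (1.63, 0.0793), WT 3 (1.29, 0.0687), CKO 1 (1.61, 0.0818) and CKO 3 (1.45, 0.125).

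In a list of 26 genes of fatty acid uptake and oxidation, 22 were tested, 18 with positive and 4 with negative log2 fold changes. The median was 0.33 (0.37 without WT 3, 0.44 without CKO 2 and 0.58 without both). Over all 12155 genes tested, 6180 had positive log2 fold changes. The sign of most genes of the list was thus opposite to that of most synthesis genes, and a difference between these lists was not tested. Of the list, 2 genes were called with all 6 libraries, in opposite directions. Fabp5, which encodes an intracellular fatty acid-binding protein, measured 60.9, 54.0 and 82.8 CPM (WT) against 174, 117 and 164 CPM (CKO) (log2 fold change 1.19, limma's adjusted p = 0.0138). Its call was kept without WT 3 or CKO 2 and lost without WT 1 (1.15, adjusted p = 0.0766), WT 2 (1.06, 0.0793), CKO 1 (1.08, 0.0697) and CKO 3 (1.13, 0.0758). Hadh, which encodes a dehydrogenase of mitochondrial oxidation, measured 178, 189 and 155 CPM (WT) against 107, 95.3 and 82.3 CPM (CKO) (log2 fold change -0.87, limma's adjusted p = 0.0182). Its call was lost without WT 1 (-0.86, adjusted p = 0.0889), WT 2 (-0.81, 0.0975) and CKO 3 (-0.78, 0.0952). Without CKO 2 limma also called Acads (0.84, adjusted p = 0.0312) and Hadha (0.68, 0.0279) higher. Of the genes named here Plin2 alone was called whichever library was left out.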
